A study of Rattus norvegicus with 17 samples.

Results

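Toll-like receptors are membrane receptors of innate immunity that bind microbial molecules and molecules released by damaged cells. Tlr1, Tlr2, Tlr4, Tlr5 and Tlr6 sit at the cell surface, where Tlr2 pairs with Tlr1 or Tlr6 to bind bacterial lipoproteins, Tlr4 binds lipopolysaccharide and Tlr5 binds flagellin. Tlr3, Tlr7 and Tlr9 sit in endosomes and bind nucleic acids. All of these receptors except Tlr3 signal through the adaptor Myd88, while Tlr3, and Tlr4 after it is taken up, signal through the adaptor Ticam1, and both routes lead to NF-κB and to interferon regulatory factors. These receptors are expressed by epithelial cells of skin and ocular surface as well as by macrophages and other leukocytes.

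The 10 genes Tlr1, Tlr2, Tlr3, Tlr4, Tlr5, Tlr6, Tlr7, Tlr9, Myd88 and Ticam1 were looked up by symbol among the 17251 genes listed for the rat meibomian gland (MG), the lipid-secreting gland of the eyelid, and 9 were listed. Ticam1 has no row and was not analysed here. RNA of 17 female rats aged 10 to 12 weeks had been sequenced, 1 library per rat, namely 4 Control WT and 3 UVB WT rats, and 5 rats in each of Control P1.hMR and UVB P1.hMR. In P1.hMR rats a transgene drives human mineralocorticoid receptor (NR3C2) from its proximal P1 promoter, which is active in all tissues that express the receptor and not in the MG alone, and WT rats are their wild-type counterparts. Rats of both UVB groups had ultraviolet B light on the eyelids for 5 days, and those of the control groups had none. The human NR3C2 transcript had 0 TPM in each of 7 WT rats, and 10 of 10 P1.hMR rats had 5.31 TPM or more, up to 9.31 TPM.

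Values were deposited as TPM (a transcript's share of its library, corrected for transcript length), so levels can be compared between genes, while the depth of each library is unknown and the error comes from the spread between rats alone. Markers of meibocytes, the lipid-filled cells of the gland, summed to between 15639 and 20183 TPM in control rats and to between 12356 and 14668 TPM in UVB rats, without overlap. The sum follows chiefly Awat2, whose mean was 10968 TPM in control and 7318 TPM in UVB rats. Scd4, Plin2 and Far2 also had lower means in UVB rats. Elovl3 (899 against 1435 TPM), Soat1 and Pparg had higher ones, so the markers did not move together. Skeletal muscle markers summed to between 1502 and 3338 TPM, so the samples also held eyelid muscle. In whole-tissue RNA, fewer cells of a type and less RNA per cell cannot be told apart.

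Myd88 was by far the most abundant of the 9 genes, and its mean TPM over the 17 rats was above that of 77.7% of all listed genes. All 8 receptors lay low, above only 18.3% (Tlr1) to 39.1% (Tlr3) of listed genes. In the 9 control rats the mean was 30.7 ± 1.56 TPM (SD, n = 9) for Myd88, 4.07 ± 1.00 for Tlr2, 3.58 ± 0.784 for Tlr3, 2.45 ± 0.486 for Tlr5 and 2.05 ± 0.345 for Tlr4. Below these came Tlr6 at 0.874 ± 0.169 TPM, Tlr7 at 0.524 ± 0.217, Tlr9 at 0.277 ± 0.108 and Tlr1 at 0.157 ± 0.0495 TPM. The ranges of Tlr2 and Tlr3, of Tlr3 and Tlr5, of Tlr5 and Tlr4, and of every pair of neighbours from Tlr6 down to Tlr1 overlapped, whereas Myd88 and Tlr2, and Tlr4 and Tlr6, did not overlap in any control rat.

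In the 8 UVB rats the order of the receptors was different. Tlr3 led with 4.26 ± 0.463 TPM (SD, n = 8), followed by Tlr4 at 2.70 ± 0.362 and Tlr2 at 2.55 ± 0.575 TPM, and Tlr4 was above Tlr2 in only 3 of 8 rats although its mean was higher. Tlr2 was above Tlr3 in 7 of 9 control rats. Tlr1, the lowest receptor in controls, and Tlr9 had means of 0.424 ± 0.175 and 0.331 ± 0.0923 TPM under UVB, with overlapping ranges.

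**Figure D1:**
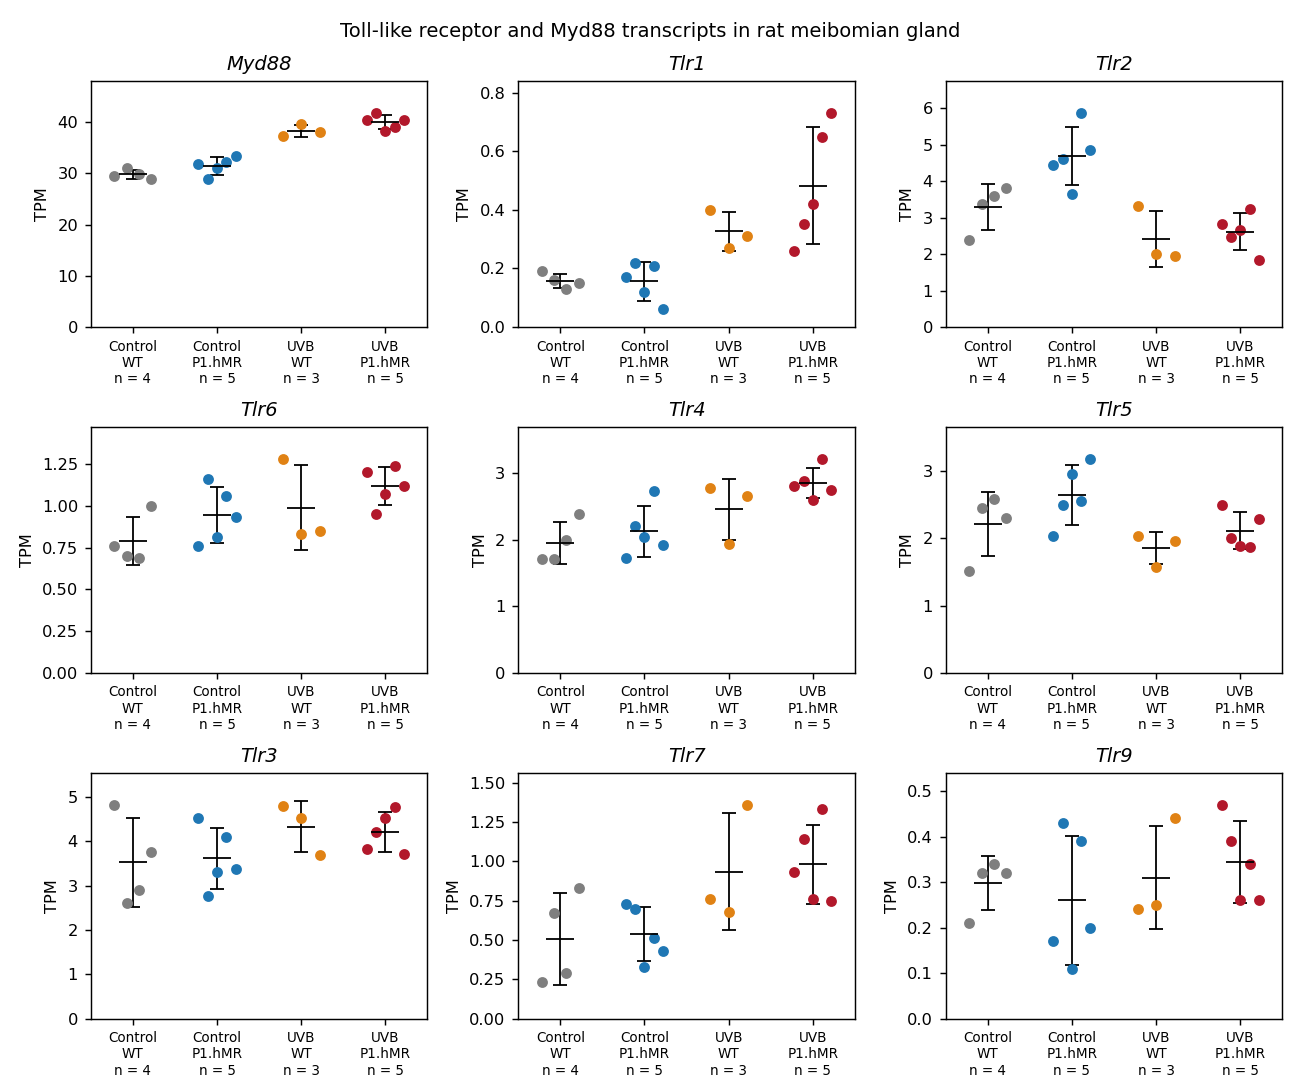
Each panel plots the TPM of 1 gene (linear axis from 0, scaled per gene) in every rat of the 4 groups, with the group mean and SD as a bar and whiskers. Myd88 and Tlr1 are higher in all 8 UVB rats than in all 9 control rats, and Tlr2 lies between 1.85 and 3.31 TPM in UVB rats against 2.40 to 5.87 TPM in control rats. The share of all genes without overlap was not counted.

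Differences were tested on log2(TPM + 1), which makes changes at low levels look smaller, in 1 limma model of the 4 group means. Genes that reached 1 TPM in 3 or more rats were tested, 13105 in number, and those called DEGs had both an adjusted p (Benjamini-Hochberg) under 0.05 and a log2 difference of 0.5 or more in size, the thresholds of the study's methods. Of the 9 listed members 7 were tested. Tlr1 and Tlr9 reached 1 TPM in no rat. Tlr7 reached it in 3 UVB rats and no control rat, so that it entered only through the group in which it was high and is left out of the counts for UVB, and Tlr6 reached it in 3 control and 5 UVB rats.

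Whether the receptors respond to UVB exposure was asked within each genotype. In WT rats 0 of the 6 members Myd88, Tlr2, Tlr3, Tlr4, Tlr5 and Tlr6 were called, where 7.91% of all tested genes were. Without the fold threshold 1 of them, Myd88, passed at an adjusted p under 0.05 against 21.5% of all genes. It was also the 1 with an unadjusted p under 0.05, which 4622 of all 13105 tested genes had. In P1.hMR rats 1 of 6 was called, the lower Tlr2, against 10.8% of all genes, and 3 of 6 passed without the fold threshold, Myd88 and Tlr4 higher and Tlr2 lower, against 39.1% of all genes. Averaged over genotypes, 0 of 6 were called against 9.48% of all genes, and 3 passed without the fold threshold against 47.2%. An unadjusted p under 0.05 was found for 5 of 6, and for 7076 of all 13105 tested genes. The median log2 difference over these 6 members was 0.19 in WT and 0.15 among P1.hMR rats, and over all tested genes 0.0054 and -0.02.

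Myd88, the shared adaptor, had the smallest SE of the 7 tested members in every comparison. It was at 29.55, 30.96, 29.94 and 28.85 TPM in Control WT rats (n = 4) and at 37.26, 39.56 and 38.07 TPM in the 3 UVB WT rats. The 5 Control P1.hMR rats had 31.79, 28.85, 30.99, 32.3 and 33.31 TPM, and the 5 UVB P1.hMR rats 40.45, 41.75, 38.19, 39.05 and 40.43 TPM. No UVB rat of either genotype overlapped any control rat. How many of all genes separate in this way was not counted, for Myd88 or for the members below. Averaged over genotypes, 47.2% of all genes had an adjusted p under 0.05 (limma), which is not the share without overlap. Whether separation is particular to members is thus not known. The mean of Myd88 rose 1.28-fold in WT and 1.27-fold among P1.hMR rats, a log2 difference of 0.35 ± 0.05 (SE, adjusted p = 0.000282) and 0.34 ± 0.041 (adjusted p = 1.70e-05), both under the threshold of 0.5. In every one of the 27 alternative fits of each comparison its adjusted p stayed under 0.05, with a highest value of 0.0101 in WT and 0.000324 among P1.hMR rats.

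Tlr2, the lipoprotein receptor, moved the other way. The Control P1.hMR rats had 4.46, 4.62, 3.65, 5.87 and 4.85 TPM, and the UVB P1.hMR rats 2.84, 2.48, 2.67, 3.25 and 1.85 TPM. Every UVB P1.hMR rat was below every Control P1.hMR rat, and the mean ratio was 0.558. The log2 difference was -0.65 ± 0.14 (SE, adjusted p = 0.00145), and the adjusted p was at most 0.00492 over 27 alternative fits. In WT rats Tlr2 was at 2.4, 3.38, 3.59 and 3.82 TPM without UVB and at 3.31, 2 and 1.96 TPM after it. These groups overlapped, with UVB WT rat 1 high and Control WT rat 1 low, and the difference of -0.34 ± 0.17 did not pass the test (adjusted p = 0.158). Without UVB WT rat 1 it was -0.52 (adjusted p = 0.0463) and Tlr2 was called in WT rats too. The difference between the responses of the 2 genotypes was -0.32 ± 0.22 and did not pass the test of the interaction (adjusted p = 0.814).

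Averaged over genotypes, Tlr2 fell by 0.50 on the log2 scale (adjusted p = 0.00138), just short of the fold threshold, and its adjusted p was between 0.000375 and 0.00805 over 26 alternative fits. Leaving out 1 rat at a time gave an averaged difference between -0.58 and -0.45.

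Both partners of Tlr2 had higher mean levels after UVB. Tlr1 was at 0.19, 0.16, 0.13 and 0.15 TPM in Control WT rats and at 0.4, 0.27 and 0.31 TPM in UVB WT rats. It was at 0.17, 0.22, 0.12, 0.21 and 0.06 TPM in Control P1.hMR rats and at 0.26, 0.35, 0.42, 0.65 and 0.73 TPM in UVB P1.hMR rats. All 8 UVB rats lay above all 9 control rats, and the ratio of means was 2.07 in WT and 3.09 among P1.hMR rats. A two-sided exact permutation test of TPM gave p = 0.0286 in WT rats, the smallest this design allows, p = 0.00794 in P1.hMR rats, and p = 0.000113 when UVB labels were exchanged within both genotypes, also the smallest allowed. In a limma fit of all genes without the filter its log2 difference was 0.20 in WT rats (adjusted p = 0.151) and 0.35 among P1.hMR rats (adjusted p = 0.00203). All of these levels were under 1 TPM, where the depth behind a value is unknown.

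Tlr6, the other partner, was between 0.69 and 1.00 TPM in Control WT, 0.76 and 1.16 in Control P1.hMR, 0.83 and 1.28 in UVB WT and 0.95 and 1.24 TPM in UVB P1.hMR rats. The groups overlapped, and its log2 differences of 0.15 ± 0.11 in WT and 0.12 ± 0.091 among P1.hMR rats did not pass the test (adjusted p = 0.359 and 0.296). Tlr1 and Tlr6 are close relatives in sequence, so the estimated split of reads between them may be uncertain, which was not tested.

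Tlr4, the lipopolysaccharide receptor, was at 1.71, 1.71, 2 and 2.38 TPM in Control WT rats and at 2.78, 1.93 and 2.65 TPM in UVB WT rats. In Control P1.hMR rats it was at 1.72, 2.2, 2.04, 2.73 and 1.92 TPM, and in UVB P1.hMR rats at 2.8, 2.88, 2.6, 3.21 and 2.75 TPM. In both genotypes the ranges overlapped, in P1.hMR rats through Control P1.hMR rat 4 alone. The log2 difference was 0.22 ± 0.12 in WT (adjusted p = 0.194) and 0.31 ± 0.099 among P1.hMR rats (adjusted p = 0.0214), and 0.27 averaged over genotypes (adjusted p = 0.0102). In P1.hMR rats the adjusted p was not under 0.05 without Control P1.hMR rat 1 (0.0566), without UVB P1.hMR rat 4 (0.0534) and with the macrophage term described further on.

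Tlr5, the flagellin receptor, had a mean of 2.21 ± 0.478 TPM in Control WT (SD, n = 4) and 1.86 ± 0.242 in UVB WT rats (n = 3). In P1.hMR rats the mean was 2.64 ± 0.446 TPM without UVB (n = 5) and 2.11 ± 0.276 after it (n = 5). The ranges overlapped in both genotypes, and log2 differences of -0.16 ± 0.13 and -0.22 ± 0.11 did not pass the test (adjusted p = 0.415 and 0.118).

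Among the endosomal receptors, Tlr3, which binds double-stranded RNA, was between 2.6 and 4.83 TPM in Control WT, 2.78 and 4.52 in Control P1.hMR, 3.69 and 4.79 in UVB WT and 3.71 and 4.77 TPM in UVB P1.hMR rats. Over both genotypes, control rats spread more widely than UVB rats and covered their whole range. The log2 differences of 0.26 ± 0.15 in WT and 0.18 ± 0.13 among P1.hMR rats did not pass the test (adjusted p = 0.252 and 0.271).

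Tlr7, a receptor of single-stranded RNA, was at 0.23, 0.67, 0.29 and 0.83 TPM in Control WT and at 0.76, 0.68 and 1.36 TPM in UVB WT rats, which overlapped. In Control P1.hMR rats it was at 0.73, 0.7, 0.33, 0.51 and 0.43 TPM, all below the 0.93, 1.14, 0.76, 1.33 and 0.75 TPM of UVB P1.hMR rats. The ratio of means was 1.85 in WT and 1.82 among P1.hMR rats. In a limma fit of all genes without the filter, so that its entry did not depend on its level, the log2 difference was 0.36 ± 0.16 in WT (adjusted p = 0.129), 0.36 ± 0.13 in P1.hMR (adjusted p = 0.0441) and 0.36 ± 0.10 averaged over genotypes (adjusted p = 0.0101). The P1.hMR value lay close to the limit, and its adjusted p was not under 0.05 in 11 of 23 alternative fits. With the replicate number of the labels as a block it was 0.0562, and without Control P1.hMR rat 3, the lowest of its group, it was 0.110.

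Tlr9, the receptor of unmethylated CpG DNA, was between 0.11 and 0.47 TPM over all 17 rats. Two-sided exact permutation tests gave p = 0.8 in WT, p = 0.310 in P1.hMR and p = 0.329 over both genotypes. These levels do not allow a difference in Tlr9 to be told from its spread between rats. Of 5 further Toll-like receptor genes, Tlr8, the genomic neighbour of Tlr7, reached 1 TPM in 1 control and 6 UVB rats and so entered the model through UVB rats alone. In the fit without the filter its log2 differences were 0.32 in WT (adjusted p = 0.185) and 0.37 among P1.hMR rats (adjusted p = 0.0429). Tlr11 and Tlr12 stayed under 0.3 TPM in every rat. Tlr10 and Tlr13 have no row and were not analysed here.

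Whether excess mineralocorticoid receptor changes the receptors was asked by comparing P1.hMR with WT rats. No member was called without UVB (0 of 7, against 0.00763% of all genes), under UVB (0 of 7, against 0.0229%) or in the interaction (0 of 7, against 0%). At an unadjusted p under 0.05 there was 1 member without UVB, 0 under UVB and 0 in the interaction. Of all 13105 tested genes 528, 1348 and 907 had such a p. The 1 member was Tlr2, whose mean was 4.69 ± 0.800 TPM in Control P1.hMR (SD, n = 5) and 3.30 ± 0.625 TPM in Control WT rats (n = 4), a log2 difference of 0.41 ± 0.15 (limma, unadjusted p = 0.0132, adjusted p = 0.998). Control P1.hMR rat 3, at 3.65 TPM, was the 1 rat of its group within the range of Control WT rats. Under UVB the Tlr2 means of 2.62 ± 0.515 TPM in P1.hMR (n = 5) and 2.42 ± 0.768 TPM in WT rats (n = 3) differed by 0.09 ± 0.16.

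Without UVB all 7 tested members had a higher mean log2 value in P1.hMR than in WT rats, with differences from 0.04 (Tlr3) to 0.41 (Tlr2). None passed the test, those of Tlr3 and Tlr7 turned negative when 1 rat was left out, and the median over all tested genes was -0.0023. Under UVB the differences ran from -0.03 (Tlr3) to 0.16 (Tlr4). Myd88 differed by 0.07 ± 0.044 without UVB and by 0.06 ± 0.048 under UVB, less than its UVB response in either genotype. The interaction was largest in size for Tlr2 and was 0.08 ± 0.16 for Tlr4, the 1 tested member with an interaction above 0.

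**Figure D2:**
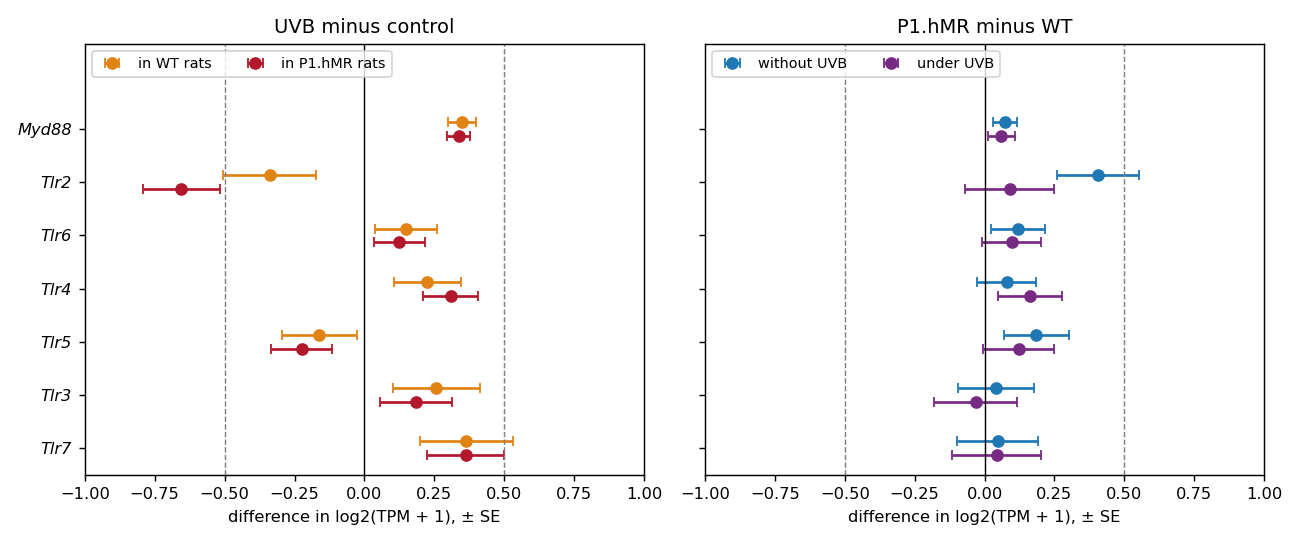
The left panel plots the difference of UVB minus control rats, and the right panel that of P1.hMR minus WT rats, in log2(TPM + 1) with its SE, for the 7 tested members, and dashed lines mark the threshold of 0.5. Myd88 lies at 0.35 and 0.34 with narrow errors on the left, Tlr2 at -0.34 and -0.65, and on the right all points but Tlr2 without UVB (0.41) lie between -0.03 and 0.19.

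The rest of the pathway was described with lists of genes by role. Counts of called genes stand against 7.91% of all tested genes in WT and 10.8% among P1.hMR rats, and no list was tested against these shares. Accessory and trafficking proteins held 9 tested genes, of which 2 were called higher in both genotypes and 7 were not called. Lbp, which carries lipopolysaccharide to Cd14, rose from a mean of 2.03 TPM in control to 9.56 TPM in UVB rats, with log2 differences of 1.59 in WT (adjusted p = 0.000315) and 1.86 among P1.hMR rats (adjusted p = 4.53e-06). Cd14, which hands lipopolysaccharide to Tlr4 and lipoproteins to Tlr2, rose from 12.3 to 24.4 TPM, with log2 differences of 0.84 (adjusted p = 0.000499) and 0.99 (adjusted p = 6.06e-06). The chaperone Unc93b1, which brings endosomal receptors to their place, differed by 0.06 and 0.12 and did not pass the test.

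None of the 15 tested kinases and ubiquitin ligases that follow Myd88 and Ticam1 was called in either genotype, where 7.91% and 10.8% of all genes were, so that few calls would stand in a list of this size at the share of all genes. Their medians were -0.02 and 0.02. Among 12 transcription factors 1 was called, Irf1, an interferon regulatory factor, which fell from a mean of 36.6 to 20.9 TPM, with log2 differences of -0.70 in WT (adjusted p = 0.000382) and -0.84 among P1.hMR rats (adjusted p = 4.31e-06). Rela, the NF-κB subunit that Myd88 signalling activates, differed by 0.04 and 0.06 and did not pass the test. Activation of these proteins is by modification and movement and is not measured by transcript levels.

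Of 11 tested genes listed as negative regulators, Sigirr, an inhibitory member of the interleukin-1 receptor family, was called higher in both genotypes (1.10 in WT, adjusted p = 0.00558, and 0.66 among P1.hMR, adjusted p = 0.0185). Nfkbiz, a nuclear partner of NF-κB that can activate as well as inhibit, was called lower in P1.hMR rats (-0.55, adjusted p = 0.0143), which is not read as less inhibition. Of 11 endogenous ligands, Defb4, a beta-defensin, rose from a mean of 62.6 to 282 TPM and was called in both genotypes (1.96 and 2.37, adjusted p = 3.42e-05 and 2.35e-07), and S100a9, a calgranulin, was called in P1.hMR rats only (0.59, adjusted p = 0.00282, against 0.45 in WT rats, adjusted p = 0.0636), while its interaction did not pass the test (adjusted p = 0.925).

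Of 18 tested response genes, 5 were called higher and 1 lower in WT rats, and 8 higher and 1 lower among P1.hMR rats, against 7.91% and 10.8% of all genes. Of those called higher, Cxcl3 and Ptgs2 in both genotypes and Cxcl2 in P1.hMR rats entered the model through UVB rats alone, so the counts hold calls that depend on the filter. The chemokines Ccl2 and Ccl7, which attract monocytes, rose by 2.05 and 1.16 in WT and 1.92 and 1.63 among P1.hMR rats on the log2 scale, and Cxcl3, which attracts neutrophils, by 1.60 and 1.81. The adjusted p of these 3 genes was at most 0.0266, and that of Cxcl3 without the filter 0.0408 in WT rats. Nos2, the inducible nitric oxide synthase, fell by 1.26 in WT (adjusted p = 0.00468) and 1.54 among P1.hMR rats (adjusted p = 8.69e-05). Of 12 other pattern recognition receptors and interleukin-1 family receptors, Il1r1, an interleukin-1 receptor that also signals through Myd88, was called higher in both genotypes (0.56 and 0.67, adjusted p = 0.00958 and 0.000299), and Cgas, a sensor of cytosolic DNA that entered through UVB rats alone, in P1.hMR rats (0.70, adjusted p = 0.000566 without the filter).

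**Figure D3:**
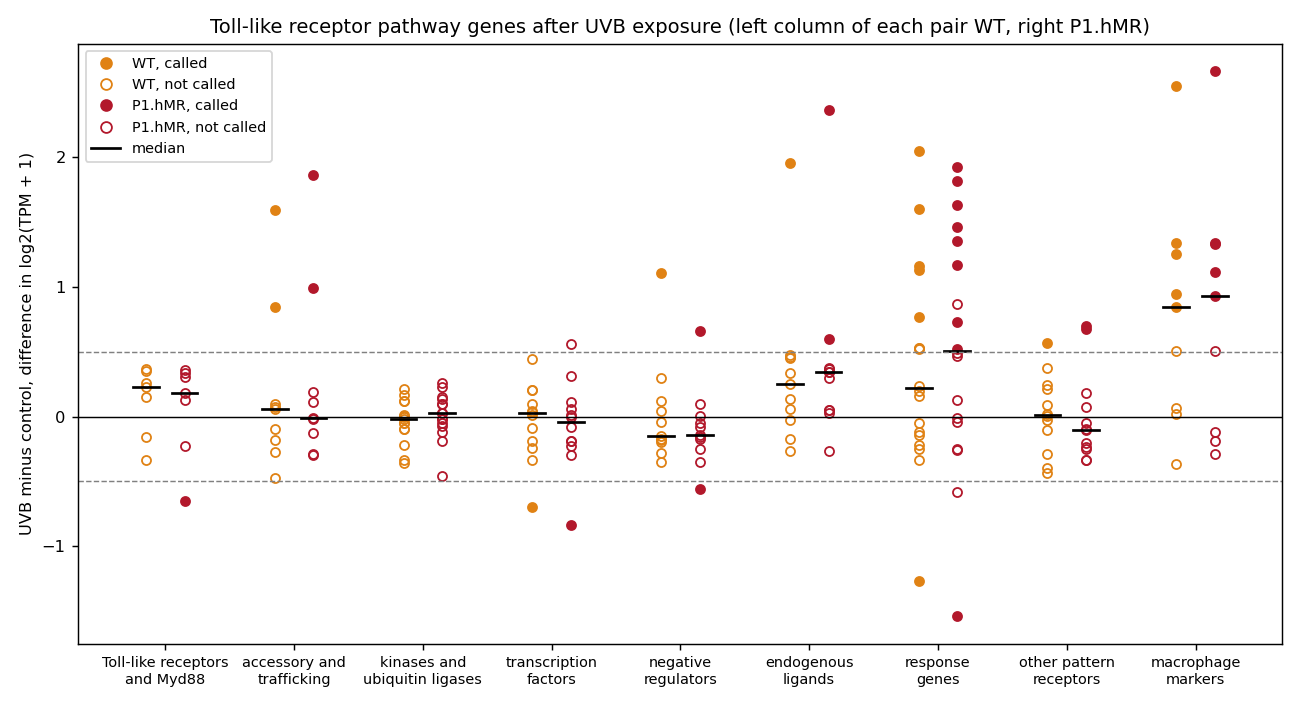
Each point is 1 tested gene, placed by its difference of UVB minus control rats in log2(TPM + 1), with WT left and P1.hMR right in each list, filled where called, and black lines mark medians. Medians are -0.02 and 0.02 for the kinases and ubiquitin ligases, 0.22 and 0.50 for response genes and 0.85 and 0.93 for macrophage markers, and the lists were not tested against each other.

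Markers of several cell types changed in the same samples. Counts of called markers stand against 7.91% of all tested genes in WT and 10.8% among P1.hMR rats. The 9 macrophage markers were all detected, and their summed level was between 93.3 and 170.04 TPM in Control WT, 96.1 and 167 in Control P1.hMR, 139 and 245 in UVB WT and 184 and 273 TPM in UVB P1.hMR rats. In each genotype 5 of 9 were called higher, Cd163, Mrc1, C1qa, C1qb and C1qc, while the pan-macrophage genes Csf1r, Adgre1 and Cd68 had log2 differences between -0.36 and 0.06 and Aif1 of 0.50 and 0.51, none of them called. Neutrophil markers summed to between 0.31 and 2.94 TPM in control and 1.11 and 4.13 TPM in UVB rats. Csf3r, the receptor of granulocyte colony-stimulating factor, rose from a mean of 0.183 to 1.63 TPM (0.88 and 1.22 on the log2 scale, adjusted p = 0.00556 and 4.22e-05 without the filter), while Elane was at most at 0.09 TPM. Among the other markers, all untested, Ngp had a lower mean in UVB than in control rats (0.0975 against 0.418 TPM). Mpo and Camp had higher means in UVB rats, so the neutrophil markers did not all move together.

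The dendritic cell markers did not move together. Cd207, the marker of Langerhans cells, was called lower in both genotypes (-1.11 and -1.26, adjusted p = 0.00217 and 5.63e-05), while Flt3 was called higher in P1.hMR rats (0.56, adjusted p = 0.00416 without the filter, against 0.48 in WT rats), and Clec9a and Siglech, both untested, had means of 0.383 and 0.05 TPM in control and 0.556 and 0.254 TPM in UVB rats. Itgax, which was not called, and Xcr1, untested, had lower means in UVB rats. Itgax was at 1.51 TPM in control and 1.245 TPM in UVB rats, and Xcr1 at 0.117 and 0.051 TPM. Among T cell markers Cd8a was called higher in both genotypes (1.07 and 1.84, adjusted p = 0.000313 and 2.88e-07 without the filter), and it was 1 of the 3 genes called between the genotypes under UVB (0.89, adjusted p = 0.0364), while Cd3e and Cd3g did not pass the test. Of 4 fibroblast markers, Pdgfra, Dcn and Lum were called higher in both genotypes, with log2 differences from 0.73 to 1.89, and Col1a1 was called lower in P1.hMR rats (-0.86). Of the 4 mast cell markers, 3 were tested, and 1 was called higher in WT and 2 among P1.hMR rats. Of 7 meibocyte markers, Awat2 and Scd4 were called lower and Elovl3 higher in both genotypes. The part of these cell types, macrophages included, in the differences of the members was not tested.

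When the mean log2 level of the 9 macrophage markers was added to the model as a further term, the members parted. The UVB differences of Tlr4 became -0.02 ± 0.14 in WT and 0.06 ± 0.13 among P1.hMR rats, those of Tlr6 -0.04 and -0.07, and those of Tlr7 -0.09 ± 0.16 and -0.10 ± 0.15. That of Myd88 was as large as before, 0.42 ± 0.065 in WT (adjusted p = 0.00103) and 0.41 ± 0.059 among P1.hMR rats (adjusted p = 0.000324). Tlr2 lay lower than without the term, at -0.65 ± 0.20 in WT, which was now called (adjusted p = 0.0421), and at -0.97 ± 0.19 in P1.hMR rats (adjusted p = 0.00201). The mean of the markers moved with UVB itself, chiefly through Cd163, Mrc1, C1qa, C1qb and C1qc and not through Csf1r, Adgre1 and Cd68. The part that cell numbers have in the difference of any member, Myd88 and Tlr2 included, thus cannot be told apart from that of UVB.

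**Figure D4:**
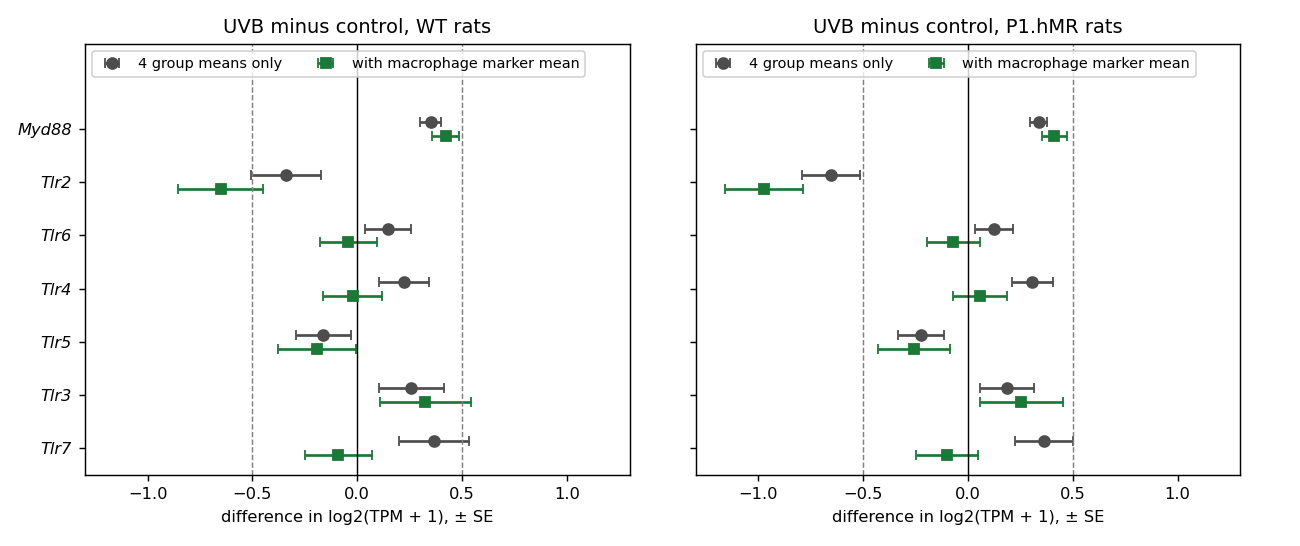
For each tested member, circles give the difference of UVB minus control rats in log2(TPM + 1) with its SE from the model of 4 group means, and squares that with the mean of the macrophage markers added. Tlr4, Tlr6 and Tlr7 lie between -0.10 and 0.06 with the term, Myd88 at 0.42 and 0.41, and Tlr2 at -0.65 and -0.97.

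For each tested member the 2 genes whose level followed it most closely from rat to rat were taken by Pearson's r of log2(TPM + 1) over 17 rats after subtracting the group means. They were picked as the highest of all tested genes, so no p is given, and the points share library composition. Tlr2 was followed by Pllp (r = 0.952, Spearman's rho = 0.931), which encodes the membrane protein plasmolipin, and Niban1 (r = 0.938). Tlr7 was followed by Ms4a4e (r = 0.921) and C1qc (r = 0.909), a chain of the complement protein C1q and 1 of the macrophage markers. Tlr4 was followed by Gpsm3 (r = 0.907), Tlr5 by Kank4 (r = 0.937), Tlr6 by Rida (r = 0.865) and Tspan7 (r = 0.859), and Tlr3 by Aarsd1 (r = 0.824) and Aqp11 (r = 0.822). Myd88, which varied least within groups, had Mrps17 (r = 0.859) and Ddx25 (r = 0.834), and these fell to 0.737 and 0.652 without the 2 rats farthest from the median, while for the other genes r stayed between 0.754 and 0.930. Spearman's rho of all these pairs lay between 0.781 and 0.931. The second genes of Tlr4 and Tlr5 are unnamed loci (r = 0.892 and 0.844).

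Promoter windows of 300 bases, from 250 before to 50 after the RefSeq start on assembly GRCr8, were at hand for the 9 listed members and searched on both strands for motifs of factors that act in this pathway and of steroid receptors. Matches are printed for Tlr2 and Myd88 only, and whether any motif bears on the differences of the members was not tested. The NF-κB consensus was found in Tlr2 alone among the 9, and in 5.02% of all 33469 windows. The interferon-stimulated element GAAANNGAAA was found in Myd88 alone, and in 3.92% of all windows. The pattern TGANTCA, labelled AP-1 here, allows any base at its centre, where the AP-1 consensus has C or G. It was found in 7.33% of windows, in Tlr9 as TGACTCA and in Myd88 as TGAATCA. The Myd88 match is thus to the loose pattern and not to the consensus. The full steroid response element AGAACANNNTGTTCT was in none of the 9 and in 0.0149% of windows, and its right arm TGTTCT, on either strand, in Tlr4 and Tlr6 and in 20.7% of windows. The matches of Tlr2 and Myd88 are given 5′ to 3′ on the gene's strand within 30 bases, with the motif in capitals.
Tlr2 NF-κB, minus strand of chr2:171504743-171504772, first motif base at -205: aggcccttggGGGAATTCCCatacggagcc
Myd88 interferon-stimulated element, minus strand of chr8:127956227-127956256, first motif base at -16: gagcttctcgGAAAGCGAAAggaggagggg
Myd88 AP-1, minus strand of chr8:127956420-127956449, first motif base at -208: ctaaacaaggcTGAATCActtcaccacgca
A match describes the letters of the window and is not a measured binding site.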

How the data were processed

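The authors isolated MG RNA and, per the study's methods, used STAR (alignment to rn7) and RSEM (quantification of genes) after a quality check in FastQC, while the submitters' processing notes name FastQC, Trimmomatic, DRAGEN and Picard with rn7. The deposited values are TPM with 2 decimals and a decimal comma, summing to between 804378 and 840817 per rat, and no further normalization is stated. TPM keeps no counts, so the DESeq2 test of the study was not repeated and depth is unknown. Per the study's reporting summary either a single eye was used or both eyes of a rat were pooled as 1 sample, and its eye counts for the UVB groups are higher than the library counts.

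Groups came from the sample titles. limma 3.58.1 in R 4.3.3, tested on simulated data, was fitted to log2(TPM + 1) with a variance trend and 6 comparisons, adjusted over 13105 genes, two-sided. Exact permutation tests of TPM were run for the 2 listed members under the filter, in 3 comparisons each, with unadjusted p-values. Python 3.11.15 with pandas 2.3.3 and matplotlib 3.10.9 served the rest. Alternatives were a pseudocount of 0.1, no filter, median-of-ratios and quantile scaling, no variance trend, only the groups compared, a replicate block, muscle and macrophage terms, no fold threshold and each rat left out. No filter together with a pseudocount of 0.1 was added after seeing the data.

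The members and the gene lists were chosen with earlier results of these data known. Named were all listed members, per list up to 4 called genes with the largest averaged difference, and the 2 genes most like each member. Unc93b1, Rela and the marker genes were named after their values were seen. Nothing states that rats of a group are from separate litters, so p-values measure the spread between these samples.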

Additional observations from a re-analysis of the deposited data

Results flagged for a closer look

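Among 27 sets of 4 or 5 rats, 1 set per member and group, 1 held a rat far from the others. Tlr9 in Control WT rat 1 was at 0.21 TPM, while the other 3 rats of the group were at 0.32, 0.34 and 0.32 TPM. About 1 set in 20 is marked in this way by chance, and the cause was not tested. The response to UVB of no member differed between the genotypes in the test of the interaction.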

How the results depend on the processing

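In P1.hMR rats Tlr2 was called in every alternative fit, and Myd88 kept its direction and its adjusted p under 0.05 in both genotypes. Without the fold threshold 1 member passed in WT, 4 passed in P1.hMR rats, 4 averaged over genotypes, Tlr7 among the latter counts, and of all genes 2820, 5123 and 6192. With the macrophage term 1 member was called in WT and 1 in the average, and signs turned for Tlr4 (-0.022 in WT rats), Tlr6 (-0.042 in WT, -0.069 in P1.hMR, -0.056 averaged) and Tlr7 (-0.090, -0.10 and -0.096). With a pseudocount of 0.1 the average called 2 members, Tlr2 and Tlr7, of which Tlr7 entered through UVB rats alone. No filter together with that pseudocount, chosen after seeing the data, called 2 members in P1.hMR rats, Tlr1 and Tlr2. In the average it called 3, Tlr1, Tlr2 and Tlr7, and 2101 of all genes, where more low genes are tested. Leaving out 1 rat gave 0 to 1 members called in WT (1 without UVB WT rat 1) and 0 to 1 in the average (1 in 7 of 17 fits), since the averaged difference of Tlr2 lies at the threshold. In 3 of 17 such fits Tlr7 fell under the filter and has no value.

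For P1.hMR against WT without UVB, Tlr7 turned to -0.0050 with quantile scaling and -0.0074 with the macrophage term. Leaving out 1 rat gave -0.061 to 0.17 for Tlr3, -0.044 to 0.15 for Tlr7 and 1 to 6 called genes, the 6 without Control WT rat 4. Under UVB, Tlr7 was -0.018 with the macrophage term, and 1 gene was called with a pseudocount of 0.1, with the replicate block, with only the 2 groups compared and with no filter and a pseudocount of 0.1. Leaving out 1 rat gave 1 to 51 called genes, the 51 without UVB WT rat 3, and -0.0034 to 0.27 for Tlr2, -0.12 to 0.030 for Tlr3 and -0.049 to 0.086 for Tlr7. For the interaction it gave 0 to 8 called genes, the 8 without UVB WT rat 3, and -0.031 to 0.15 for Tlr4. The causes were not tested.

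Rats with the same number in the labels did not deviate together as a set (r between -0.187 and 0.235 over 22 pairs, median -0.0051). For rats with different numbers r was between -0.264 and 0.181 over 85 pairs, with a median of 0.0080. This check cannot show what the numbers stand for. With the replicate block the count was 0 members for WT and 1 member for P1.hMR rats, with 1019 and 1400 of all genes. Levels under 1 TPM limit Tlr1, Tlr7 and Tlr9 most.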
